A study of Caenorhabditis elegans with 2 samples.

Results

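The replication-dependent histone genes and their relatives were examined for CEH-2 peaks in late Caenorhabditis elegans embryos. All nuclear protein-coding genes of the Ensembl WBcel235 annotation whose symbol is his followed by a number were taken, which gave 72 of 19973 genes. By RefSeq product, 17 encode H2A, 16 H2B, 15 H3, 16 H4 and 5 the replacement histone H3.3 or an H3.3-like protein. A further 1, his-24, was taken by its symbol as the gene of linker histone H1. The products of the other 2, his-39 and his-73, are described only by a histone domain. Genes whose ends lay within 5000 bp of each other were chained into loci, which gave 19 loci, of which 11 were clusters of 3 to 13 genes, 3 were pairs and 5 were single isolated genes. The clusters held 61 of the 72 genes, and 62 genes faced away from a histone neighbour across a shared stretch of DNA, in 31 divergent pairs.

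Core histones H2A, H2B, H3 and H4 form the protein spool of the nucleosome, and their genes are transcribed in large amounts while DNA is copied. Their messages are short, mostly lack introns and end in a stem-loop bound by a dedicated protein in place of a poly(A) tail, whereas H3.3 genes are also used outside DNA replication. A divergent pair of core histone genes shares one regulatory stretch, so that a factor bound there cannot be assigned to one gene of the pair. The factor profiled, CEH-2, is the worm homeodomain protein related to EMX and to empty spiracles of the fly, and is known for its role in the pharynx.

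The study profiled CEH-2 by ChIP-seq in 1 group of 2 biological replicates, with no second condition. The animals were hermaphrodite late embryos of strain OP323, a transgenic line in which CEH-2 carries GFP and FLAG at its C-terminus, collected 5 hours after synchronization by egg bleaching. Chromatin was sonicated and, by the sample description, precipitated with an antibody to GFP. The antibody characteristic of the labels reads ceh-2 instead, and the description was followed here. Whole organisms were used, so that every tissue contributed and cells with and without CEH-2 cannot be told apart. The promoter that drives the fusion is not given in the labels, and the control was not analysed here. Because no condition was compared with another, all results below are counts and levels with no test.

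Around every transcript start a window was taken that began 1000 bp upstream and ended 200 bp downstream, and a gene was counted when the summit of a deposited peak lay in it. The authors' reproducible set, made from both replicates by the irreproducible discovery rate, held 1453 peaks, and the relaxed lists held 16046 peaks for pooled reads, 18431 for replicate 1 and 15188 for replicate 2. Each deposited peak has a signal, the value given to it by the authors' peak caller in units that no label or header names, and its lowest value was 86.3 in the reproducible set, 29.0 in the pooled list, 15.0 in replicate 1 and 17.5 in replicate 2. Signals from the pooled list and from a replicate's list do not share a scale and are set side by side, not subtracted. Read counts are not in the lists, and sequencing depth is unknown.

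Stretches of 101 bp are printed here to show what lies under histone summits and, for 1 locus, that the pairs on either side of a summit are copies of each other. They come from the RefSeq genome of WBcel235, the assembly also called ce11. The first 3 are centred on the pooled summits of 3 of the 4 histone promoters in the reproducible set, his-61 and his-62 at chrIV:7486367-7486467, his-31 and his-32 at chrIV:8334078-8334178 and his-37 at chrV:9546970-9547070, all on the plus strand. The next 2 are centred on weaker summits, his-60 and his-59 at chrIV:7488049-7488149 on the plus strand and his-4 and his-3 at chrV:16040586-16040686 on the minus strand. The last 2, his-29 and his-30 at chrIV:8331489-8331589 on the minus strand and his-33 and his-34 at chrIV:8335795-8335895 on the plus strand, lie midway between the starts of pairs with no summit. The stretch of the other, his-67 and his-68, is not printed here. Capitals mark GGGGACAC or its reverse complement, the 8-base word present in the most whole stretches between divergent histone starts, 21 of 31, the next words being in 20.
his-61/his-62: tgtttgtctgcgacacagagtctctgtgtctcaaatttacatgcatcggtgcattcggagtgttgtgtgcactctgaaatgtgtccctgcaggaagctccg
his-31/his-32: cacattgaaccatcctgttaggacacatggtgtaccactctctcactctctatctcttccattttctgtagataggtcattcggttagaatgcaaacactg
his-37: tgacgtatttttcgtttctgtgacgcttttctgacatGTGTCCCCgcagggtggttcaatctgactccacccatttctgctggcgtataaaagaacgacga
his-60/his-59: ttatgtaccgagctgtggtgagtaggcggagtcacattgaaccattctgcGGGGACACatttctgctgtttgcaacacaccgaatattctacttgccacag
his-4/his-3: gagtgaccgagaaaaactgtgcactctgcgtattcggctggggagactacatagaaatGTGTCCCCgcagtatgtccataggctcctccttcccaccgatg
his-29/his-30: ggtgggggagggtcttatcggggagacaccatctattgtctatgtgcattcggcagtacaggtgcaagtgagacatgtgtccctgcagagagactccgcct
his-33/his-34: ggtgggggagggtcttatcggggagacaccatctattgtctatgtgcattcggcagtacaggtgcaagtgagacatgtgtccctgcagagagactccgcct

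The stretches of his-29/his-30 and his-33/his-34 are the same base for base, since both pairs are copies of one sequence within a single locus. The other 5 each occur once in the genome. Capitals appear under the summits of his-37, his-60/his-59 and his-4/his-3 and are absent from those of his-61/his-62 and his-31/his-32.

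Histone promoters were occupied at 4 places in the reproducible set, which covered 7 of the 72 genes, or 9.72%, beside 5.97% of all protein-coding genes. These genes were his-67 and his-68, his-61 and his-62, his-31 and his-32, and his-37. The first 6 form 3 divergent pairs that each share 1 summit, so the 7 genes rest on 4 independent peaks at 4 of the 19 loci. In the pooled relaxed list 24 genes, 33.3%, had a summit, beside 29.4% of all genes, and these came from 19 distinct summits at 11 loci. Replicate 1 had a summit in 26 histone windows, 36.1% beside 30.8% of all genes, and replicate 2 in 21, 29.2% beside 28.2%. The histone share was thus near that of all genes in each relaxed list and above it in the reproducible set by a margin that rests on 4 peaks.

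The divergent pair of his-67, an H4 gene, and his-68, an H2A gene, had the highest histone signal, 182 in the pooled list, 89.0 in replicate 1 and 93.0 in replicate 2. The summit stood 183 bp upstream of his-67 and 186 bp upstream of his-68, near the middle of the 368 bp between them, and also fell in the window of alg-5, which encodes an Argonaute protein. In each replicate this peak was within the strongest 2.02% and 2.5% of the list, so both replicates placed it high. It was the one pair of the 31 that joins an H2A gene to an H4 gene, whereas 16 join H2A to H2B and 14 join H3 to H4.

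The pair of his-61, H2A, and his-62, H2B, had a pooled signal of 145, with 63.3 in replicate 1 and 80.6 in replicate 2. Its summit lay 200 bp upstream of his-61 and 128 bp upstream of his-62, in a peak from 7486330 to 7486477 on chromosome IV that was narrower than the median of 456 bp. The pair of his-31, H4, and his-32, H3, had 129, 66.6 and 61.9 in the same order, 145 and 177 bp from the starts. A weaker pooled summit of 36.2 lay 41 bp inside his-32 and was in replicate 2 alone, at 19.6. The H4 gene his-37, which has no divergent histone partner, had 130 in the pooled list, 57.7 in replicate 1 and 71.1 in replicate 2, at 85 bp upstream. The lowest of these 4 peaks was above every other histone summit in both replicates, the next being his-35/his-41 at 34.2 in replicate 1 and his-24 at 45.0 in replicate 2.

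**Figure D1:**
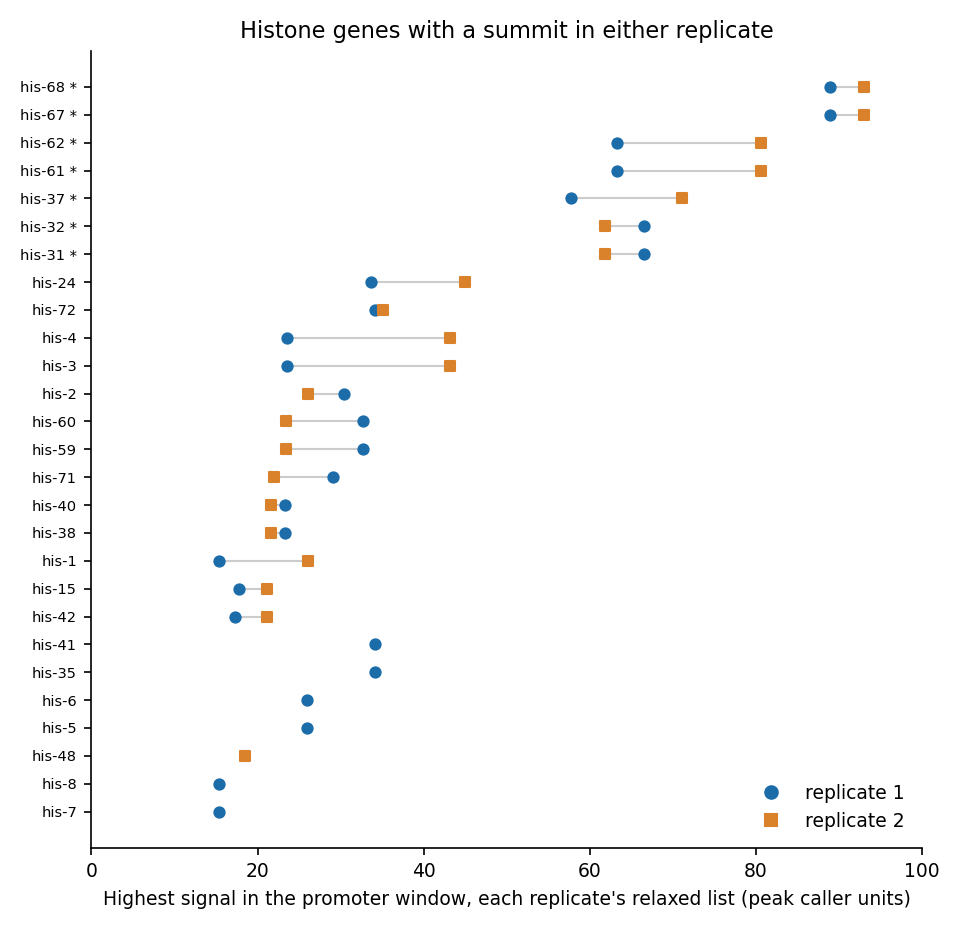
Highest signal (x axis, peak caller units) in the promoter window of each histone gene with a summit in either replicate (y axis), as circles for replicate 1 and squares for replicate 2, joined where both exist; an asterisk marks the 7 genes in the reproducible set. These 7 lie from 57.7 to 93.0, and all other genes lie at 45.0 or below.

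All 4 reproducible summits stood 85 to 200 bp upstream of the histone starts. The median was 177 bp over 7 entries of gene and summit, in which a shared summit counts once for each gene. The pooled summits had almost the same median, 174.5 bp over 28 such entries, but spread from 62 bp inside the gene (his-72) to 982 bp upstream (his-15). By signal, the 4 summits had a median of 138 within a set whose median was 126, and all 4 stayed in when only reproducible peaks at or above that median were kept. They were thus ordinary members of the set: his-67/his-68 ranked 369, his-61/his-62 569, his-37 681 and his-31/his-32 692 of 1453.

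**Figure D2:**
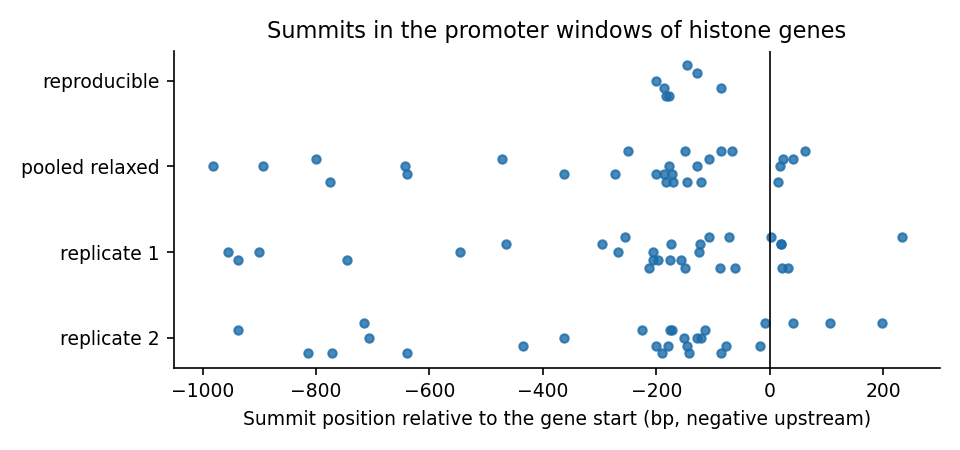
Position of each summit relative to the start of the histone gene whose window holds it (x axis, bp, negative upstream), for the 4 peak lists (y axis); each point is 1 gene and summit, so a summit shared by a divergent pair appears once for each gene. The reproducible summits lie between 85 and 200 bp upstream, and the relaxed ones reach 982 bp upstream.

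Below the reproducible set, the linker histone gene his-24 had the highest signal in the pooled list, 76.8, and in replicate 2, 45.0. In replicate 1 its 33.7 was under the 34.2 of his-35/his-41 and the 34.1 of his-72. Its pooled summit was 19 bp inside the gene, and it ranked 1771 in the pooled list, short of the lowest reproducible signal of 86.3. The H2B gene his-4 and the H2A gene his-3 shared 70.7, 23.5 and 43.2. The H4 gene his-60 and the H3 gene his-59, which sit beside his-61/his-62 in the same cluster, shared 56.0, 32.7 and 23.4. The genes his-4 and his-3 were higher in replicate 2 and his-60 and his-59 in replicate 1, so the order of these 2 pairs differed between replicates. For comparison within 1 cluster, the signal of his-61/his-62 was above that of his-60/his-59 in both replicates.

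Among weaker promoters, his-38 and his-40, an H4 and H3 pair, shared 45.7 in the pooled list, 23.3 in replicate 1 and 21.6 in replicate 2. The H4 gene his-1 had 39.5 in the pooled list and 15.4 in replicate 1, at 472 and 465 bp upstream, inside its H3 partner his-2. Its highest value in replicate 2, 26.1, was at another site, 151 bp upstream and between the starts of the pair. The gene his-2 had a pooled summit of 31.2 at 643 bp upstream, past the end of his-1. Its highest values were 30.4 at 547 bp in replicate 1 and the same 26.1 in replicate 2. No pooled or replicate 1 summit lay between these starts. The H2B gene his-15 had 33.2 at 982 bp upstream in the pooled list, 17.8 at 900 bp in replicate 1 and 21.1 at 706 bp in replicate 2, so these are different positions. Replicate 1 alone held summits for the H2A and H2B pair his-35/his-41, at 34.2, and for the H3 and H4 pair his-6/his-5, at 26.0, and these reached 47.9 and 36.5 in the pooled list. In all, 20 of the 72 genes had a summit in both replicates and 7 in exactly 1, and 28 had one in at least 1 relaxed list. Over all 19973 protein-coding genes these counts were 3967, 3856 and 8043.

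None of the 5 genes for H3.3 or H3.3-like proteins was in the reproducible set. Of these, 2 had a pooled summit, his-72 and his-71, the ones whose product is named H3.3. The gene his-72 had a pooled signal of 49.7 just inside the gene and a second summit of 34.2 at 775 bp upstream, which also fell in the window of rpt-6, a proteasome subunit gene. Its highest values were 34.1 in replicate 1, 234 bp inside the gene, and 35.1 in replicate 2, at the upstream site. The replicates thus put their strongest summit at different places, that of replicate 1 within 300 bp of a tRNA, snoRNA or snRNA gene. Both also had a summit nearer the start, 25.2 at 32 bp inside in replicate 1 and 23.3 at 107 bp inside in replicate 2. For his-71 the values were 44.2 in the pooled list at 640 bp upstream, 29.1 in replicate 1 and 22.0 in replicate 2. The genes his-69, his-70 and his-74, whose products are named H3.3-like, had no summit in their windows in any list. Of each of these windows 86.6% or more is unique sequence. The genes known only by a histone domain, his-39 and his-73, had none either.

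Many histone genes exist as near-identical copies, and a read that lies wholly in sequence shared by several copies matches each of them equally well. To show where this could matter, the share of 36-base words in each window that occur once in the genome, on either strand, was computed. It had a median of 24.6% over histone genes and 100% over all genes. In 41 of the 72 histone windows the share was under 50%. None of these 41 was in the reproducible set and 2, or 4.88%, were in the pooled list, beside 0.35% and 2.8% of the 571 genes of any kind with such windows. Of the other 31 histone genes 7, or 22.6%, were reproducible and 22, or 71.0%, had a pooled summit, beside 6.13% and 30.2% of the 19402 genes with such windows.

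Genes without a summit were thus mostly those with repeated windows, and the part of uniqueness in the result was not tested. The 20 windows with no unique word had no summit in any list. The labels and headers do not give read length or the handling of reads with several matches, so an absent summit in a repeated window does not show an absent factor. The 22 pooled genes among the 31 share summits in pairs and lie in few loci, and they are not independent of each other.

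**Figure D3:**
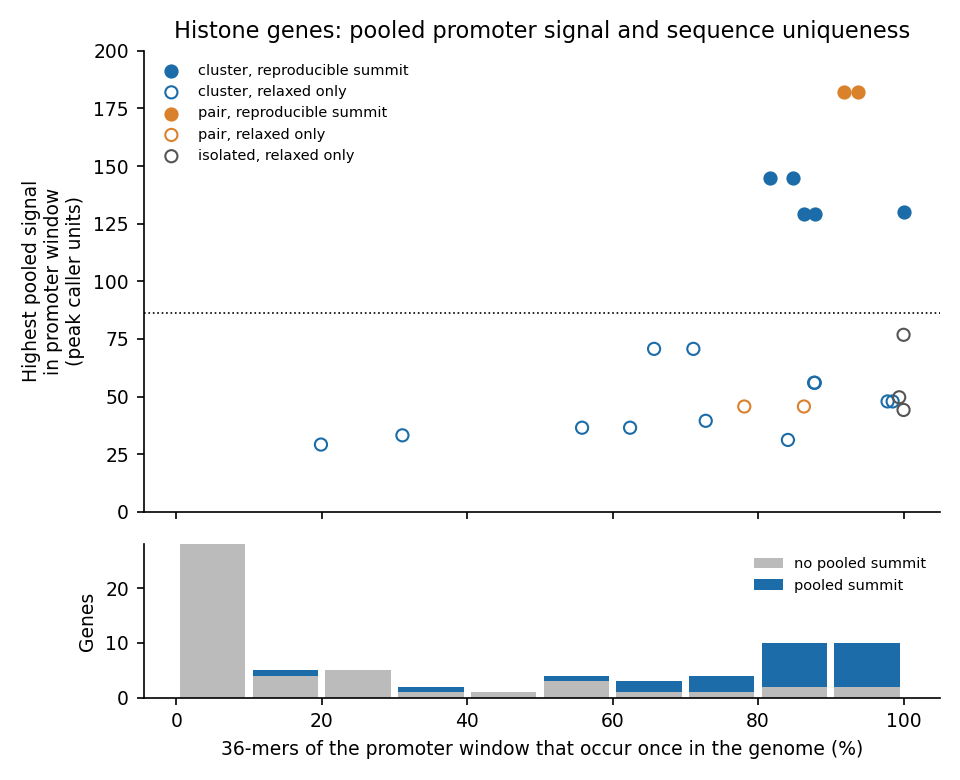
Upper plot, highest pooled signal in the promoter window (y axis, peak caller units) against the percentage of 36-base words in the window that occur once in the genome (x axis); each point is 1 of the 24 histone genes with a pooled summit, filled where it is in the reproducible set, coloured by arrangement, and the dotted line is the lowest reproducible signal, 86.3. Lower plot, number of histone genes in each 10% step of uniqueness, with and without a pooled summit; 22 of the 24 with one lie above 50%.

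In finer bands the histone share in the pooled list rose with uniqueness, as it did over all genes. Of 36 histone windows under 25% unique, 1 had a pooled summit, beside 1.25% of all genes in that band, and from 25 to 50% it was 1 of 5 beside 4.76%. From 50 to 75% it was 5 of 9 beside 14.9%, from 75 to 90% it was 9 of 12 beside 25.9%, and from 90% it was 8 of 10 beside 31.2%. Within each of these bands the histone share was above that of all genes, and the bands hold few histone genes. In the replicates the rise was not steady, with 8 of 9, 9 of 12 and 8 of 10 in the upper 3 bands in replicate 1 and 4 of 9, 9 of 12 and 6 of 10 in replicate 2. The reproducible genes lay above 75%, with 4 of 12 and 3 of 10 in the 2 upper bands, beside 5.22% and 6.32%. Cytosolic ribosomal protein genes, another large family used by growing cells but with mostly unique promoters, had 34.6% of 78 genes in the reproducible set and 88.5% in the pooled list. Both shares of the ribosomal family were above those of the 31 histone genes with windows at least 50% unique.

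**Figure D4:**
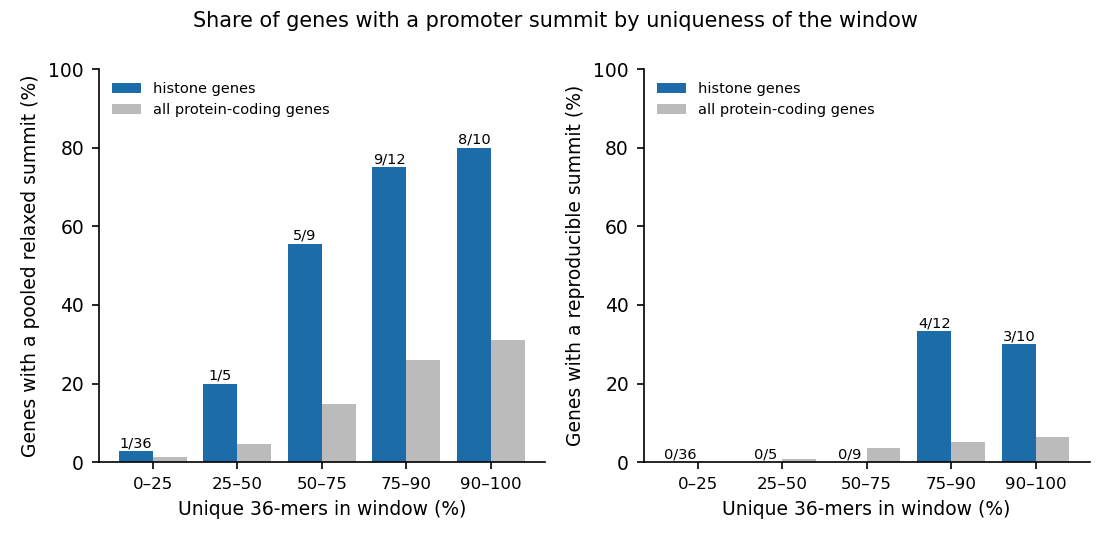
Percentage of genes with a pooled relaxed summit (left, y axis) or a reproducible summit (right, y axis) in the promoter window, by the percentage of unique 36-base words in the window (x axis), for histone genes (blue) and all protein-coding genes (grey); the fractions give histone genes with a summit over histone genes in the band. The histone share in the pooled list goes from 1 of 36 in the lowest band to 8 of 10 in the highest.

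By arrangement, 5 of the 61 genes in clusters, 8.2%, were in the reproducible set, 2 of the 6 in pairs and none of the 5 isolated genes. In the pooled list these were 17 of 61, or 27.9%, 4 of 6 and 3 of 5. The shares of all genes were 5.97% and 29.4%, and those of cluster genes were near them. Summits stood at 3 of 11 clusters, 1 of 3 pairs and none of the isolated genes in the reproducible set, and at 6, 2 and 3 of them in the pooled list. The arrangements also differed in sequence, since all 11 genes outside clusters had windows at least 50% unique and only 20 of the 61 in clusters did. Of those 20 cluster genes 5, or 25.0%, were reproducible and 15, or 75.0%, had a pooled summit. Over all genes with such windows the shares were 6.13% and 30.2%. With 6 and 5 genes in the smaller classes, no order between the arrangements can be read from these counts.

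Clusters differed among themselves. In the cluster of his-61, his-62, his-60 and his-59 and in that of his-4, his-3, his-2 and his-1 all 4 genes had a pooled summit. Those of his-2 and his-1 did not lie between their starts. These loci with 1000 bp on either side are 90.2% and 82.7% unique. The cluster of his-50, his-49, his-51, his-52, his-54 and his-53 has no unique word, that of 8 genes from his-28 to his-18 is 9.3% unique, and neither had a summit in any list. The 4 genes from his-55 to his-57 had none either, at 48.7%. The largest cluster, 13 genes on chromosome II from his-16 to his-42, is 19.7% unique and held 2 pooled summits, in the windows of his-15 at 33.2 and his-26 at 29.2. The gene his-42, at the end of this cluster and 68.6% unique, had 17.3 at 174 bp upstream in replicate 1 and 21.1 at 938 bp in replicate 2, the latter within 300 bp of a small RNA gene and in the window of F08G2.4. These are different sites, and neither was in the pooled list.

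The cluster of his-29 to his-34 on chromosome IV held both kinds of promoter in a row. Its central pair his-31/his-32, with windows 87.8% and 86.3% unique, had the reproducible summit of 129. The flanking pairs his-29/his-30 and his-33/his-34, whose 253 bp between starts are identical to each other and whose windows are at most 13.2% unique, had no summit in any list. Whether CEH-2 was at the flanking pairs cannot be read from these lists.

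The same contrast held over the 31 divergent pairs, whose starts are 227 to 368 bp apart. For 16 pairs the sequence between the starts is shared exactly with another pair, and none of them had a summit between the starts in any list. The other 15 pairs match no other pair exactly over the full length, but some are near copies, such as his-46/his-45 and his-55/his-56 at 99.6% identity. Of these 15, 3 had a summit there in the reproducible set, 6 in the pooled list, 6 in replicate 1 and 7 in replicate 2. By uniqueness, 20 pairs were at most 14.0% unique and had none, and the other 11, at 80.5% or more, held all of these summits. Of the 11, the pair his-63/his-64 had no summit in either window, and his-8/his-7 had one in replicate 1 alone, at 15.4 just inside his-7. Identity to the closest other pair did not strictly order the 11, though the reproducible pairs were among the lower values. It was 93.5% for his-63/his-64 and 95.5% for his-8/his-7, but also 94.9% for his-6/his-5 and 88.7% for his-4/his-3, which had pooled summits between their starts. It was lowest, 51.0%, for his-35/his-41, which had none there but a pooled summit of 47.9 at 24 bp inside his-41. For the reproducible pairs his-67/his-68, his-31/his-32 and his-61/his-62 it was 57.4%, 58.4% and 79.5%. Apart from these and his-35/his-41, all of the 11 were at 85.5% or more and none was reproducible.

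Pairs of H2A and H2B genes had a summit between the starts in 1 of 16 cases in the reproducible set and 2 of 16 in the pooled list, and pairs of H3 and H4 genes in 1 of 14 and 3 of 14. Restricted to pairs at least 50% unique, these were 1 and 2 of 4 for H2A with H2B and 1 and 3 of 6 for H3 with H4. Counted by gene, the reproducible set held 3 of 16 H4 genes, 2 of 17 H2A genes, 1 of 16 H2B genes and 1 of 15 H3 genes. These are 18.8%, 11.8%, 6.25% and 6.67%, beside 5.97% of all genes, and the H2B and H3 shares are near it. In the pooled list all 7 H4 genes with windows at least 50% unique had a summit, beside 4 of 5 H2A, 3 of 4 H2B and 5 of 7 H3 genes. Of all genes with such windows 30.2% had one. Classes that share a divergent stretch share its summit, so these counts are linked.

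Sequence words were counted on both strands in 300 bp around each start, 250 bp before it and 50 bp after. The homeodomain words TAATTA and TAATGA were each present in 1 of 72 histone promoters, 1.39%, beside 15.5% and 20.0% of all promoters. Neither was within 50 bp of any of the 4 reproducible summits, and TAATTA was near 1 of the other 15 pooled summits, that of his-15. TATAAA, the core of a TATA box, was in 65.3% of histone promoters beside 37.9%, GAGAGA in 45.8% beside 21.8%, and GGCCAC in 2.78% beside 4.72%. A match is only a description of the letters, and its absence says nothing of the factor.

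GGGGACAC, capitalised in the printed stretches, was picked from the histone sequences themselves, so its frequency among them was fixed by the choice. It was in 44 of 72 histone promoters and in 63 of the other 19901, or 0.317%. Of the 7 reproducible genes, 5 hold it in the promoter, but within 50 bp of the summit it occurred at 1 of the 4 reproducible summits, that of his-37, and at 2 of the other 15. Between divergent starts it was in 16 of the 20 pairs under 50% unique, which had no summit there, and in 5 of the other 11. These counts include exact copies. The 31 pairs hold 21 distinct sequences, 12 of them with the word, and it was in 33 of 61 distinct promoters. The GC content within 50 bp of the reproducible summits was 42.6 to 50.5%, within the 18.8 to 59.4% of the other pooled summits.

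Genes for histone proteins with other symbols were compared through a list of 12, of which 1, or 8.33%, was in the reproducible set and 7, or 58.3%, in the pooled list, beside 5.97% and 29.4% of all genes. A single gene of 12 is near the share of all genes. The linker histone gene hil-7 had 151 in the pooled list, 93.9 in replicate 1 and 56.8 in replicate 2. The gene htz-1, which encodes the variant H2A.Z, had 84.9, 44.4 and 40.5, just under the lowest reproducible signal, and the linker histone gene hil-3 had 78.3, 48.7 and 27.1. The gene hcp-3, for the centromeric H3 variant, had 53.9, 28.4 and 23.5. Of the other linker histone genes, hil-5, hil-4 and hil-2 had pooled signals of 52.4, 50.8 and 47.3, with none for hil-2 in replicate 1. The linker histone genes hil-1, hil-6 and hil-8 had no summit in any list, and htas-1 and cpar-1 had one in 1 replicate alone. The windows of all 12 genes are 85.7% unique or more, so the list differs from the core histone genes in that respect.

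Genes whose products supply or deposit histones were compared through a list of 15, of which 6, or 40.0%, were in the reproducible set and 11, or 73.3%, in the pooled list. The share of all genes was 5.97% and 29.4%. The gene nasp-2, for a chaperone of H3 and H4, had 264 in the pooled list, 123 in replicate 1 and 134 in replicate 2. The gene chaf-2, for a subunit of chromatin assembly factor 1, had 438, 212 and 232 in the same order, the replicate values being above his-67/his-68 in both. The gene unc-85, for the ASF1 chaperone, had 159, 81.6 and 75.9. At the other end, asfl-1, rba-1 and hmg-3 had no summit in any list. The gene cdl-1, which encodes the protein that binds the stem-loop of histone messages, had 44.0 in the pooled list and 36.0 in replicate 1 and no summit in replicate 2. The list was drawn up by hand with earlier results of these data known, and its share is not independent evidence.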

How the data were processed

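CEH-2 peaks were measured by ChIP-seq in 2 biological replicates of 1 group. Per the file headers, the authors called relaxed peak lists on each replicate and on pooled reads with a control, and derived the reproducible set by the irreproducible discovery rate. The signal deposited by the authors for each peak was used only to describe and rank peaks within a list. For the aligner, peak caller, filters and threshold, the name or value is not given in the sources used here. Lists on ce11 were used and those on ce10 were not. No read counts are in them, so depth is unknown.

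Positions are 1-based. Gene models came from Ensembl release 115, and sequence and gene names from RefSeq, matched by WormBase identifier for 72 of 72 genes, because 36 share an Ensembl symbol with another. Summits were placed in windows from 1000 bp upstream to 200 bp downstream of transcript starts. Words of 36 and 50 bases were counted on both strands of the nuclear and mitochondrial genome. A divergent pair had starts within 1000 bp. The counting was tested on simulated data. Python 3.11.15, numpy 2.4.6, pandas 2.3.3, Biopython 1.88 and matplotlib 3.10.9 were used.

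Alternatives were windows from 500 and 2000 bp upstream, overlap in place of the summit, no summits within 300 bp of tRNA, snoRNA or snRNA genes, a stricter set, each replicate alone and chaining within 2000 or 10000 bp. The members and lists were chosen with earlier results of these data known. Named genes are those with a reproducible summit, the 10 next promoters by pooled signal, isolated genes, and H3.3 and linker histone genes. The genes his-2, his-7, his-8, his-26, his-42, his-63, his-64 and the clusters without summits were named after their values were seen, and GGGGACAC and the split at 50% unique words were also chosen then.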

Additional observations from a re-analysis of the deposited data

How the results depend on the processing

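The count of 7 histone genes in the reproducible set became 11 with windows from 2000 bp upstream, which added his-59, his-34, his-35 and his-41 through summits 1102 to 1844 bp away that lie nearer to other genes. It was 8 when any base of a peak counted and 7 under the other settings tried. With as many of the strongest peaks of a single replicate it ranged from 7 to 8, his-24 being added in replicate 2. The count of 24 in the pooled list ranged from 20 to 29 over the windows and was 21 to 26 in a single replicate. The count of 4 loci was the same when chaining within 2000 or 10000 bp and ranged from 4 to 5 in single replicates. Without genes whose windows are under 50% unique, a setting chosen after the data were seen, the counts were 7 and 22. With words of 50 bases, 40 windows in place of 41 were under 50% unique. No paired analysis was possible because the series has 1 group. Depth is unknown, so how many reads a missing summit rests on is unknown too.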

Other observations

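Summits inside the bodies of histone genes were also counted. No histone gene had one in the reproducible set, 6 had one in the pooled list, 7 in replicate 1 and 4 in replicate 2. The same count was not made over all genes, so whether these numbers are low or high cannot be said. Besides the 4 reproducible summits in histone windows, another lay beside a histone locus, with a signal of 89.5 within 300 bp of the end of his-35, and it fell in the window of mdf-1, a spindle checkpoint gene, and in no histone window.

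Summits in repeated sequence were also counted over the genome. Of the 1430 nuclear summits in the reproducible set, 9 stood in 101 bp with no unique 36-base word. A larger number, 45, or 3.15%, stood in 101 bp that are less than 50% unique. Counted by single position, 7.93% of the nuclear genome does not begin a unique word. This share is a different measure from that of 101 bp stretches, and they cannot be compared directly.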
